A study of Mus musculus with 12 samples.

Results

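The comparison set NIH/3T3 fibroblasts with a premature stop codon in Actg1 (PTC1) against NIH/3T3 fibroblasts that lack the whole Actg1 locus (LD), and used 6 of the 12 ATAC-seq libraries of the series, 3 per line. NIH/3T3 is an immortalised line of mouse embryonic fibroblasts. Actg1 encodes cytoplasmic gamma-actin. Both lines were made with CRISPR-Cas9 and both are Actg1 mutants: the PTC1 label lists an allele with 1 nt inserted after position 280 and a second that carries a substitution at 280 beside the same insertion, with the stop in exon 3, and the LD label gives a full locus deletion. The labels name no separate clones of an allele, so each line was taken as 1 line and p-values measure the spread between its samples. Libraries of unedited cells (WT) and of a line with 4036 nt inserted after position 1096 and a stop in exon 5 (PTC2), 3 each, were used for levels only. Each sample held 25000 cells, transposed for 30 min at 37 °C. Of 81995 listed regions, 81985 had a mean of 5 or more over the 12 columns and were compared on log2(normalized read count + 1). A normalized read count is the deposited number of reads in a region after the authors' scaling of each library.

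A gene with a premature stop codon is transcribed, and its mRNA is a substrate of nonsense-mediated decay, the pathway in which UPF and SMG proteins mark such mRNAs for degradation. A deleted locus gives no mRNA at all. In transcriptional adaptation, decay of a mutant mRNA goes with higher transcription of related genes. A stop allele set beside a locus deletion thus compares cells that transcribe the mutant gene with cells that cannot. The PTC1 stop and the deletion were each read in their own line only. The mutant mRNA therefore cannot be told apart from any other difference between these lines. Its part in the differences described below was not tested. ATAC-seq reads how open the DNA is to the Tn5 transposase, which is high at active promoters and enhancers and low in packed chromatin.

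The promoters of 8 genes described below, 4 more open in each line, are shown to let their base composition be compared, and were chosen after the values were seen, not as the 8 with the largest differences. Each is given as the 250 bases before the start site, 5′ to 3′ on the gene's strand, from the RefSeq sequence of build GRCm38.p6 (mm10). Capitals mark CG dinucleotides, the sites of DNA methylation in mammals. The sequences are those of the reference and were not read from the lines. The first group was open in PTC1 and low in LD, with no LD library above 38.
Trim68, chr7:102687328-102687577, minus strand: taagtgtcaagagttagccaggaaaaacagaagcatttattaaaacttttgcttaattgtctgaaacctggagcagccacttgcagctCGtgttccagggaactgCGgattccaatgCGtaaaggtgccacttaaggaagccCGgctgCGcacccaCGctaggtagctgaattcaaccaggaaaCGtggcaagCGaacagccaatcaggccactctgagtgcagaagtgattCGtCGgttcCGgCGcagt
Pctp, chr11:90002895-90003144, minus strand: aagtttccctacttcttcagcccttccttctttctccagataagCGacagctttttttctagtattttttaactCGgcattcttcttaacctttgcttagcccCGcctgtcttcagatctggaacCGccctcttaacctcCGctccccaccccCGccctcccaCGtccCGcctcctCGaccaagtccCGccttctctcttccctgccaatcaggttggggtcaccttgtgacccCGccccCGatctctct
Sox2, chr3:34649745-34649994, plus strand: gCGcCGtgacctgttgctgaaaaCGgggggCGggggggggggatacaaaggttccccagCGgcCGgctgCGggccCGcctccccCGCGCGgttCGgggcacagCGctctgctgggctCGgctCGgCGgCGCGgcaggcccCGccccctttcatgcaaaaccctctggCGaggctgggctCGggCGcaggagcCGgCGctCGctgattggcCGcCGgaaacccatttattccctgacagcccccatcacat
Six2, chr17:85688255-85688504, minus strand: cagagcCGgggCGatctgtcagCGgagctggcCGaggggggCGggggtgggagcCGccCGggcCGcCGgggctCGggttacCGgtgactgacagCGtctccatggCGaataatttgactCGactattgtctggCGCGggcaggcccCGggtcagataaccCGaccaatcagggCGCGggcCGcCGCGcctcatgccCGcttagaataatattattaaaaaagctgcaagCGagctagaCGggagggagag
The second group was open in LD and far lower in PTC1, nearly closed at all but Mmp3.
Epha3, chr16:63864176-63864425, minus strand: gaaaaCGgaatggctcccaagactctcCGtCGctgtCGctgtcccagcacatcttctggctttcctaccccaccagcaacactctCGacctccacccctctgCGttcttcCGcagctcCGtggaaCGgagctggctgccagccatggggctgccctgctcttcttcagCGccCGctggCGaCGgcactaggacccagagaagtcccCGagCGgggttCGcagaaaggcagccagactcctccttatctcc
Zfp141, chr7:42505754-42506003, minus strand: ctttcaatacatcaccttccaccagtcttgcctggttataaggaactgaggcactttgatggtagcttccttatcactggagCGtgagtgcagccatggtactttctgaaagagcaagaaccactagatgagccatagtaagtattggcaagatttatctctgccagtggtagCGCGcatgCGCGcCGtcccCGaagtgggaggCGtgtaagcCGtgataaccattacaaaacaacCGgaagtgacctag
Nox4, chr7:87246399-87246648, plus strand: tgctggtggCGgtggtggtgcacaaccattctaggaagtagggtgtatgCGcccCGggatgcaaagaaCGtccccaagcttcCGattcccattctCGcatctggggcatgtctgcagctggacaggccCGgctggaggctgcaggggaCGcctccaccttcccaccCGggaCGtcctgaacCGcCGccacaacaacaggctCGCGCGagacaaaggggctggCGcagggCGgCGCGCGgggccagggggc
Mmp3, chr9:7445572-7445821, plus strand: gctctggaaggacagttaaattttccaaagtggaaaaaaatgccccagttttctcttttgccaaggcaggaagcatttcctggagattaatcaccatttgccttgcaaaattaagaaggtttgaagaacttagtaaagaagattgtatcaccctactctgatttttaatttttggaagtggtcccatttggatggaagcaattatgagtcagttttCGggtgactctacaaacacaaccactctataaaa

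CG content differed widely among these promoters, from 27 CG dinucleotides at Sox2 to 1 at Mmp3, and each group holds promoters rich in them. RefSeq promoters whose start lay in a region were found for 7053 of 10050 genes with a region centred within 1000 bp. The median number of CG dinucleotides in 250 bases was 13 in the 322 promoters higher in PTC1 by a log2 of 1 or more, 15 in the 338 lower by as much, and 17 in all 7053. The ETS motif CCGGAAG, searched on both strands, was in 9.94% of the higher, 3.55% of the lower and 15.1% of all promoters. The AP-1 motif TGANTCA, bound by Jun and Fos proteins, was in 6.83%, 9.17% and 4.35%. The E-box CAGCTG was in 15.5%, 11.5% and 10.8%. None of these motifs contains another. Promoters with large differences were also weaker, with a median normalized read count over the 6 libraries of 374.7 (higher), 193.4 (lower) and 1261 (all), and the part of level and CG content in the motif shares was not tested. Among the promoters shown, Zfp141 holds the ETS motif, Mmp3 the AP-1 motif and Nox4 the E-box.

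Normalized read counts summed to 32.74 to 33.58 M (mega) in the PTC1 libraries and 31.29 to 32.41 M in the LD libraries. Reads in regions before scaling, estimated from the gaps in the whole numbers, were 30.32 to 35.14 M and 24.99 to 33.33 M. Libraries of 1 line correlated across regions with Pearson's r of 0.982 to 0.985, and PTC1 with LD libraries with 0.817 to 0.824, the lowest of all pairs of groups. PTC1 with PTC2, the other stop line, gave 0.848 to 0.856, and PTC2 with LD 0.896 to 0.9. Regions are not independent replicates, so these values describe likeness only. Regions within 1000 bp of a start site took 43.97% ± 0.642 (SD, n = 3) of the normalized reads in PTC1 and 42.51% ± 0.639 in LD (exact permutation test, 2-sided, p = 0.1, the smallest that 3 against 3 allows). Of the 43 fibroblast and matrix genes listed, 40 had a region. Of these, 12 were higher in PTC1, 18 lower and 10 neither (limma, adjusted p under 0.05). Col1a1, Vim and Pdgfra were among the 10 that were neither, with PTC1 minus LD differences of 0.09, -0.06 and 0.16 on the log2 scale.

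About as many regions were more open in PTC1 as in LD. The deposited libraries already had nearly the same median ratio (factors of 0.998 to 1.001), so a near-even split largely follows from the scaling. Of the 81985 regions, 27916 (34.1%) were higher in PTC1 and 27449 (33.5%) lower (limma, Benjamini-Hochberg adjusted p under 0.05, here termed called), 67.5% in all. A log2 difference of 1 or more was reached by 12037 (14.7%) and 12368 (15.1%) of them, 29.8% in all. The median absolute difference over all regions was 0.57, and 8697 regions differed by 2 or more and 3576 by 3 or more. Read at the listed region nearest each start site, 5150 of 12337 genes (41.7%) were higher in PTC1 and 3298 (26.7%) lower, 68.5% in all, with a median log2 difference of 0.10. By a log2 of 1 or more 6.8% of the genes were higher and 6.65% lower. These shares moved with the scaling: under loess normalization 36.4% of the genes were higher and 32.4% lower, after subtracting each chromosome's median (chromosome centring) 37.6% and 20.65%, and after subtracting the median of the regions within 1000000 bp (local centring) 33.4% and 19.9%. Large differences were more frequent in regions with no listed gene. Of these, 34.0% were called with a difference of 1 or more, against 14.1% of regions within 1000 bp of a start site. Among regions with a mean of 200 to 800 over the 6 libraries, these shares were 25.6% and 18.7%. The median levels within that band still differed, at 356.3 and 511.8. The largest listed distance to a start site was 6159 bp, so a region with no listed gene can lie inside a gene. At Acta2, 4 regions overlapped the gene and 1 was listed with it.

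**Figure D1:**
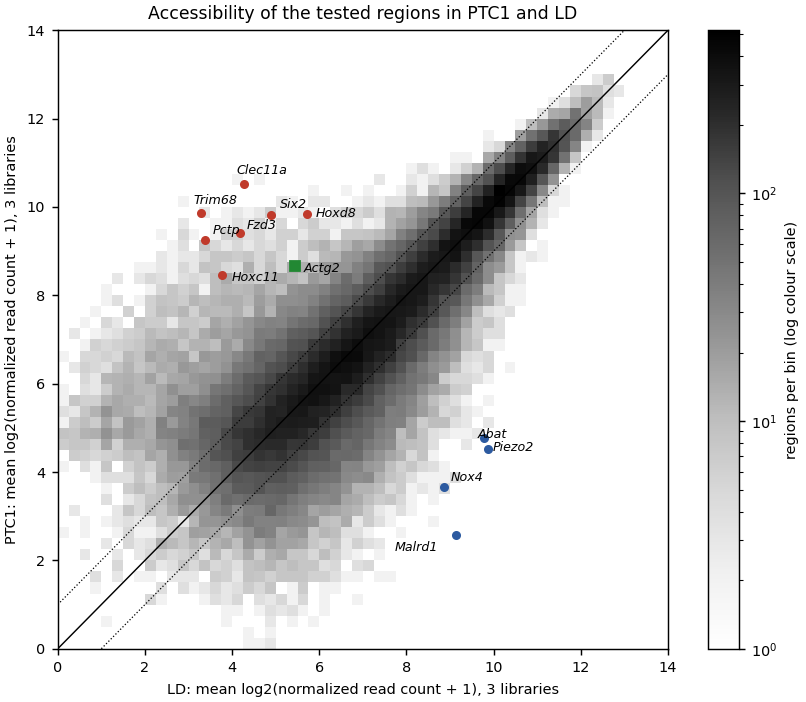
Mean log2(normalized read count + 1) of the tested regions in LD (x axis) and PTC1 (y axis), 3 libraries each, as the number of regions per bin on a log colour scale, with dotted lines at a log2 difference of 1. Most regions lie along the diagonal, and the labelled regions, such as Trim68 (log2 difference 6.58) and Malrd1 (-6.56), lie far from it.

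The other actin genes are the closest relatives of Actg1. Only Actg2, which encodes the gamma-actin of smooth muscle, was far more open at its start site in PTC1 than in LD, among the 3 actin genes with a listed region (Actb, Acta2 and Actg2). The Actg2 start-site region (chromosome 6, 83535961 to 83536888, centre 160 bp from the start) had normalized read counts of 430, 415 and 369 in the PTC1 libraries and 35, 54 and 40 in the LD libraries. Every PTC1 library was thus several times above every LD library. The log2 difference was 3.22 (SE 0.162, limma adjusted p = 2.86e-13), a 9.35-fold difference of value + 1. WT stood near LD at 27 ± 10.1 (SD, n = 3) and PTC2 near PTC1 at 341 ± 11.1. Regions around it went the same way: one in the gene body (83533791 to 83534017) had 79, 98 and 89 in PTC1 and 8, 11 and 17 in LD (2.84, adjusted p = 1.73e-08). One upstream (83541748 to 83542936) had 431, 367 and 449 against 64, 91 and 71 (2.46, adjusted p = 3.03e-12). The neighbourhood as a whole was more open in PTC1, with a median log2 difference of 0.80 over the 162 regions within 1000000 bp of the start-site region. The start site of the neighbour Dguok, a mitochondrial nucleoside kinase gene, was 0.74 higher (adjusted p = 1.75e-10), and -0.07 after that local median was subtracted, while Actg2 kept a difference of 2.42.

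At Actb, which encodes beta-actin, the start-site region (chromosome 5, 142905667 to 142907273) had 3009, 2885 and 3206 in PTC1 and 2979, 2706 and 2713 in LD. These libraries overlapped and the difference of 0.12 was not called (95% interval 0.004 to 0.23, limma adjusted p = 0.0632). It was called without PTC1 replicate 2 (0.15, adjusted p = 0.0441), without LD replicate 1 (0.16, adjusted p = 0.0137) and in a fit on all 12 libraries (adjusted p = 0.0468), and loess normalization turned it to -0.03. A weak region 3158 bp from the Actb start was lower in PTC1 by 0.35 (adjusted p = 0.0195), a call that ended when PTC1 replicate 2 (-0.27, adjusted p = 0.0891), LD replicate 1 (-0.32, adjusted p = 0.061) or, in turn, LD replicate 2 was left out (-0.33, adjusted p = 0.0541). At Acta2, the smooth muscle alpha-actin gene (chromosome 19, 34254222 to 34256027), values were 1651, 1615 and 1683 in PTC1 and 1719, 1659 and 1773 in LD. They overlapped too, with a difference of -0.06 (95% interval -0.17 to 0.06, adjusted p = 0.376). Loess normalization gave a call at -0.16 (adjusted p = 0.00667) and chromosome centring one in the other direction at 0.16 (adjusted p = 0.0163).

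Beside the skeletal and cardiac actin genes the picture was mixed. The 3 regions within 10000 bp of Acta1, the skeletal muscle actin gene, were lower in PTC1 by 1.70, 0.37 and 0.78 on the log2 scale (adjusted p = 1.01e-11, 0.000633 and 5.48e-09). The first of them (chromosome 8, 123883230 to 123883886) had 155, 177 and 200 in PTC1 and 564, 598 and 564 in LD. The region near Actc1, the cardiac muscle actin gene (chromosome 2, 114059630 to 114060125), was higher, with 145, 154 and 140 against 61, 66 and 61 (1.21, adjusted p = 9.56e-07). Neither group of values overlapped between the lines, which was also so at 35.5% (higher in PTC1) and 34.7% (lower) of all regions. A region just past the 3′ end of Actg2 (83512300 to 83512759) was higher by 0.48 (adjusted p = 0.0307). That call ended when PTC1 replicate 2 (0.36, adjusted p = 0.154), PTC1 replicate 3 (0.49, adjusted p = 0.06) or, in turn, LD replicate 3 was left out (0.37, adjusted p = 0.129), and local centring turned it to -0.32. In all, 18 regions were listed with an actin gene or lay within 10000 bp of one: 7 were higher, 5 lower and 6 not called. Over all regions 34.1% were higher and 33.5% lower, so the actin regions as a group lay near the background. No region overlapped Actg1 itself (chromosome 11, 120345687 to 120348495) or lay between 120298089 and 120369661, so the deletion could not be checked at its locus.

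Among regions listed with a gene, the largest differences selected by rule were at regions open in 1 line and nearly silent in the other, most of them at start sites. Il1rapl1, a synaptic adhesion molecule gene (chromosome X, 88115554 to 88116282), had 283, 232 and 277 in PTC1 and 2, 0 and 0 in LD (log2 difference 7.52, SE 0.396, limma adjusted p = 6.18e-13). Trim68, which encodes a ubiquitin ligase (chromosome 7, 102686940 to 102687592), had 843, 1039 and 934 against 10, 16 and 4 (6.58, adjusted p = 1.96e-14). Clec11a, which encodes a secreted growth factor of bone and blood progenitors (chromosome 7, 44304653 to 44305677), had 1516, 1398 and 1460 against 19, 20 and 16 in a region centred 1737 bp from its start (6.24, adjusted p = 1.02e-18). In all of these the LD libraries were almost empty and the lines lay far apart. Pctp, a phosphatidylcholine transfer protein gene (chromosome 11, 90002536 to 90003130), had 622, 678 and 544 against 5, 18 and 9 (5.88). Fzd3, a Wnt receptor gene (chromosome 14, 65261878 to 65262786), had 635, 691 and 718 against 18, 13 and 21 (5.24). The WT level separates these genes: Trim68, Clec11a and Pctp were also near closed in WT, at 11.3 to 27.3, while Il1rapl1 (180) and Fzd3 (139) were well above that.

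The other large rises were 1298 bp from the Usp17lb start (6.17), 4059 bp from that of Galntl6 (6.13), 1076 bp from that of the fibroblast growth factor gene Fgf14 (5.62), at the start of the LIM-domain-binding gene Ldb2 (5.51), 4699 bp from the Sox2 start (5.46) and at the GABA receptor gene Gabre (5.18). Some sat in neighbourhoods that were higher as a whole. Subtracting the median of the regions within 1000000 bp left 2.38 at Il1rapl1, 3.39 at Galntl6, 1.52 at Fgf14 and 2.55 at the Sox2 region, over 17, 6, 11 and 54 regions, the region itself included. With a pseudocount of 10, Il1rapl1 moved to 4.68, Usp17lb to 3.56, Galntl6 to 4.06 and the Sox2 region to 3.47. The calls of all these held under every alternative run.

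Among the falls, Malrd1, an intestinal bile acid regulator gene (chromosome 2, 15526230 to 15526873), had 3, 5 and 8 in PTC1 and 573, 563 and 562 in LD (log2 difference -6.56, SE 0.248, limma adjusted p = 3.35e-15). Epha3, an ephrin receptor gene (chromosome 16, 63863522 to 63864445), had 1, 3 and 3 against 208, 181 and 232 (-6.03, adjusted p = 8.1e-13, and -3.33 after the local median was subtracted). Zfp141, a zinc finger protein gene (chromosome 7, 42505233 to 42506220), had 13, 6 and 2 against 379, 356 and 354 (-5.77, adjusted p = 6.67e-12). These start sites were near 0 in every PTC1 library. Abat, the gene of the enzyme that breaks down the transmitter GABA (chromosome 16, 8512973 to 8513830), had 23, 18 and 26 against 949, 910 and 951 (-5.34). Nox4, an NADPH oxidase gene (chromosome 7, 87246251 to 87247083), had 5, 16 and 19 against 478, 454 and 454 (-5.19). Piezo2, a mechanically gated ion channel gene (chromosome 18, 63386087 to 63387439), had 29, 25 and 25 against 881, 838 and 893 (-5.00). All 6 had reads in WT, at 109.7 to 901.3, and in PTC2, at 228.3 to 1452.

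The remaining falls were at the mismatch repair gene Mlh3 (-5.71), Nol4 (-5.57), Zfp810 (-5.19), regions 3005 bp from the Polr1f start (-5.23) and 3329 bp from that of Mss51 (-5.12), and Eomes (-4.99), a T-box factor gene. Eomes was the member whose PTC1 libraries spread most, at 3, 15 and 34 against 426, 428 and 392. With a pseudocount of 10, Mlh3 moved to -3.45, Polr1f to -2.71 and Mss51 to -2.80.

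**Figure D2:**
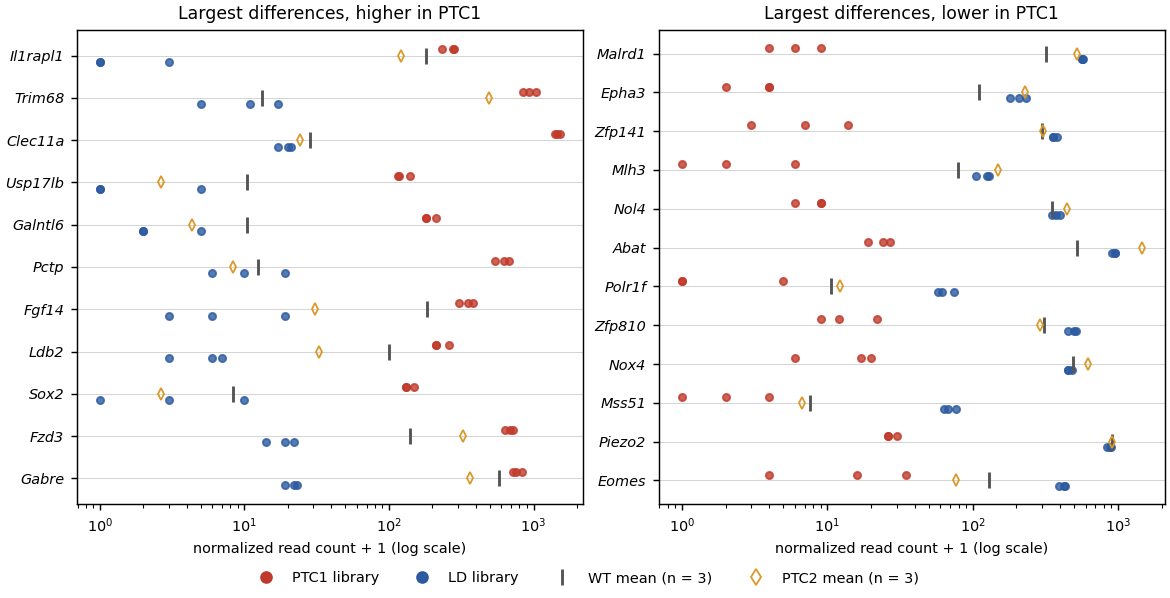
Normalized read count + 1 (log axis) at 11 of the 12 largest rises and at the 12 largest falls, with 1 point per PTC1 and LD library and the means of WT and PTC2 (n = 3 each). The rule took only regions whose PTC1 and LD libraries do not overlap, so the points are apart at every gene. At Trim68 they are at 843 to 1039 against 4 to 16. WT lies near 1 line or between them.

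Regions open in 1 line and closed in the other were mostly open in PTC1. Open was set at a mean normalized read count of 200 or more and closed at 20 or less. Of the 81985 regions tested, 464 were open in PTC1 and closed in LD, and 130 were open in LD and closed in PTC1. Start sites made up 39 and 19 of them, and 386 and 99 had no listed gene. WT was closed at 134 and open at 55 of the first set, and closed at 1 and open at 54 of the second. PTC2 was closed at 236 and open at 43 of the first set, and closed at 12 and open at 45 of the second. Start sites of the first set, beside those given, include the ephrin receptor gene Epha4 (4.01), the synaptic vesicle gene Syt1 (4.69) and Hoxc11 (4.68). Those of the second include Mga (-4.98), which encodes a MAX-binding repressor and was also closed in PTC2 (7.33) but open in WT (477.7). Mga was named here after its values were seen.

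Transcription factors of the HOX clusters, which set position along the body axis, leaned to PTC1. Of 26 HOX genes read, 21 were higher in PTC1, 3 lower and 2 not called, with a median log2 difference of 0.74, against 0.10 over all genes read, of which 41.7% were higher and 26.7% lower. The clusters differed in size of difference. The 8 Hoxc genes were all higher with a median of 3.66, 4 of 5 Hoxb genes with a median of 1.90, and 8 of 8 Hoxa genes with a median of 0.51. Of the 5 Hoxd genes, 1 was higher and 3 lower. Hoxc11 (chromosome 15, 102953052 to 102953965) had 322, 376 and 355 in PTC1 and 16, 14 and 9 in LD (4.68, limma adjusted p = 5.56e-14). Hoxc10 had 145, 121 and 171 against 9, 5 and 4 (4.44), and Hoxc5 had 131, 115 and 125 against 5, 6 and 5 (4.30). Before centring, Hoxd8 (chromosome 2, 74704654 to 74706078) was the only Hoxd gene called higher. It had 804, 1001 and 967 against 46, 39 and 75 (4.14, limma adjusted p = 1.2e-14), while Hoxd4, Hoxd11 and Hoxd13 were lower by 0.60, 0.38 and 0.24. WT lay with LD at all of Hoxc11 (30.0), Hoxc10 (8.0), Hoxc5 (7.67) and Hoxd8 (44.3).

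Centring changed the clusters in different ways. Hoxa genes lie on chromosome 6 and Hoxc genes on chromosome 15, where most regions were higher in PTC1. With the chromosome's median subtracted, 12 HOX genes were higher and 2 lower, with 1 Hoxa gene higher and 1 lower of 8 and 6 Hoxc genes higher of 8. With the local median subtracted, 16 were higher and 0 lower, with 3 Hoxa and 6 Hoxc genes higher. The Hoxb count stayed at 4 of 5 higher with either centring. Of the 5 Hoxd genes, chromosome centring gave 1 higher and 1 lower (median 0.06). Local centring gave 3 Hoxd genes higher and 0 lower (median 0.23), so the lower Hoxd calls did not hold under it. Without centring, 4 Hoxd genes were lower under loess normalization, and 2 to 4 when 1 library was left out.

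**Figure D3:**
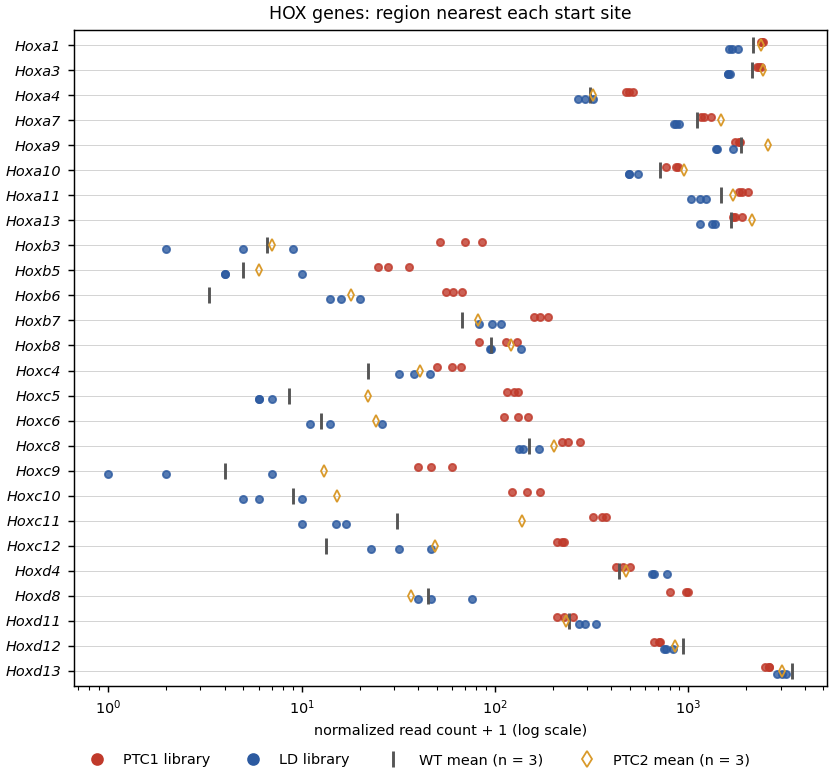
Normalized read count + 1 (log axis) at the region nearest the start site of each HOX gene read, with 1 point per PTC1 and LD library and the means of WT and PTC2 (n = 3 each). The lines are far apart at most Hoxc genes and at Hoxd8 (804 to 1001 against 39 to 75), and close together at the Hoxa genes.

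Other developmental transcription factors went both ways, with 8 of 33 higher in PTC1 (24.2%) and 16 lower (48.5%), beside 41.7% and 26.7% of all genes read, a median of -0.14 beside 0.10, and 4 of the higher and 8 of the lower by a log2 of 1 or more. Sox2, a pluripotency and neural stem cell factor (chromosome 3, 34649614 to 34651366), had 982, 986 and 1107 in PTC1 and 29, 38 and 30 in LD (4.95, limma adjusted p = 2.84e-17, and 2.03 after the local median was subtracted). Six2, a kidney progenitor factor gene (chromosome 17, 85687942 to 85688871), had 822, 923 and 953 against 29, 24 and 34 (4.92, adjusted p = 8.14e-17). Both were open in PTC1 libraries only, with 23.0 and 37.0 in WT and 27.7 and 23.0 in PTC2. Foxp2, a forkhead repressor gene (chromosome 6, 14900178 to 14901912), had 90, 75 and 114 against 1060, 874 and 945 (-3.37), and Sox11 had 147, 116 and 132 against 945, 904 and 886 (-2.79). Around Sox11 the regions were higher in PTC1 (local median 1.63), and the difference was -4.42 once that was subtracted.

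Adhesion and guidance receptors had 9 of 33 genes higher (27.3%) and 14 lower (42.4%), with a median of -0.09, beside 41.7% and 26.7% of all genes read and their median of 0.10. The protocadherin gene Pcdh9 had 44, 37 and 19 in PTC1 and 1048, 880 and 1043 in LD (-4.93), and Sema3d, a secreted guidance cue gene, had 40, 20 and 25 against 744, 749 and 685 (-4.69). The protocadherin gene Pcdh7 was lower by 3.31 and Epha4 higher by 4.01. Epha4 was at 0.32 once the local median was subtracted (limma adjusted p = 0.368), which ended its call, while Pcdh9 kept -2.03 over a window of 12 regions. The Pcdh7 region is itself the median of the 9 regions in its window, so local centring sets it to 0 by construction and says nothing of its neighbours. Among signalling ligands and receptors 12 of 48 were higher (25%) and 20 lower (41.7%), with a median of -0.10. The Wnt antagonist gene Sfrp2 had 59, 57 and 58 against 587, 515 and 623 (-3.28), the growth factor receptor gene Egfr was at -1.64 and the ligand gene Pdgfd at -2.21 (-0.95 after the local median was subtracted). Notch1 was higher by 2.31, with 229, 218 and 290 against 51, 44 and 50.

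Genes that build and remodel actin filaments showed small differences, in shares near those of all genes read. In the actin-binding list 21 of 42 were higher in PTC1 (50.0%) and 11 lower (26.2%), beside 41.7% and 26.7% of all genes read, with a median of 0.10 in both. Loess normalization gave 16 higher and 16 lower, with a median of -0.01. Wasl, which activates the Arp2/3 complex (chromosome 6, 24663986 to 24665531), had 2563, 2613 and 2791 in PTC1 and 1348, 1216 and 1265 in LD (1.06, limma adjusted p = 1.35e-12). Tmsb10, Msn and Twf1, which encode an actin monomer binder, a membrane linker and twinfilin, were higher by 0.98, 0.96 and 0.81. The neighbourhoods of Tmsb10 and Msn were higher by as much, and local centring left 0.13 (adjusted p = 0.0649) and 0.07 (adjusted p = 0.396), which ended both calls, and 0.31 at Twf1. After it, 12 of the 42 genes were higher and 4 lower.

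Targets of MRTF and SRF, the actin-sensing transcription factors, and contractile genes had 11 of 29 higher (37.9%) and 10 lower (34.5%), with a median of 0.09, beside 41.7% and 26.7% of all genes read and their median of 0.10. Synpo2, an actin-bundling protein gene of muscle (chromosome 3, 123235886 to 123236383), had 12, 8 and 7 in PTC1 and 153, 164 and 163 in LD (-4.04, limma adjusted p = 1e-11). Zyx, which encodes the focal adhesion protein zyxin, was higher by 0.87 and -0.15 after local centring, Myh9 (non-muscle myosin) by 0.61 and -0.05, and Cald1 (caldesmon) by 0.83 and 0.03. Chromosome centring lowered the list's 11 higher genes to 5 and local centring to 3. YAP-TEAD targets and regulators had 7 of 20 higher (35.0%) and 8 lower (40%), with a median of -0.05. The counts were 5 and 11 under loess normalization and 6 and 5 after local centring. The Hippo pathway scaffold gene Wwc1 had 309, 344 and 357 against 830, 804 and 831 (-1.29, adjusted p = 1.89e-11) and Amotl2 was at -1.33, while Ptpn14 (-0.50) was at -0.10 and Wwc2 (-0.43) at 0.20 after local centring. Immediate early genes, which respond first to serum and stress, had 12 of 20 higher (60.0%) and 4 lower (20%), with a median of 0.19. Klf6 had 1946, 1902 and 1836 against 658, 669 and 614 (1.55, adjusted p = 1.61e-14, and 0.99 after local centring). Klf10, Jun and Jund were higher by 0.62, 0.57 and 0.46 in neighbourhoods higher by 0.75, 0.58 and 0.35. After local centring 3 of the 20 genes were higher and 3 lower.

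Genes of the mRNA decay machinery, which acts on mRNAs with premature stops among others, differed by small amounts. Of 17 nonsense-mediated decay genes 9 were higher in PTC1 (52.9%) and 5 lower (29.4%), beside 41.7% and 26.7% of all genes read, with a median of 0.14 beside 0.10. Chromosome centring left 6 and 2 and local centring 6 and 1. The only member called with a log2 of 1 or more was Upf3b, the link between exon junctions and decay (chromosome X, 37109780 to 37110777), with 1347, 1352 and 1384 in PTC1 and 713, 610 and 720 in LD (1.00, limma adjusted p = 1.08e-10, and 0.25 after local centring). The release factor gene Gspt1 was lower by 0.45, and local centring turned it to 0.15. Etf1, the other release factor gene, was higher by 0.28. Of 25 general mRNA decay genes 13 were higher (52.0%) and 4 lower (16.0%) with a median of 0.17 (8 higher and 5 lower under loess normalization, 2 lower after either centring). Lsm5, a subunit of the ring that binds mRNA ends, had 989, 918 and 872 against 452, 425 and 427 (1.09), the decapping gene Dcp1a was higher by 0.50 and Lsm4 by 0.41, and the helicase gene Ddx6 lower by 0.46. Of these, Lsm4 (0.06) and Ddx6 (0.002) lost their calls after local centring. COMPASS complexes, which methylate histone H3 at promoters, had 6 of 16 genes higher (37.5%) and 4 lower (25%), near the shares of all genes, with a median of 0.10 and none by 1 or more. Hcfc1 and Kmt2d were higher by 0.75 and 0.48 and Kmt2a lower by 0.57, none of them called after local centring, and the demethylase gene Kdm6a was higher by 0.51.

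Of 40 fibroblast and matrix genes 18 were lower in PTC1 (45.0%) and 12 higher (30.0%), with a median of -0.10, while 26.7% of all genes read were lower and 41.7% higher, with a median of 0.10. The matrix protease gene Mmp3 (chromosome 9, 7445034 to 7446267) had 45, 57 and 59 in PTC1 and 682, 683 and 789 in LD (-3.72, limma adjusted p = 1.18e-15). The microfibril gene Fbn2 had 14, 14 and 18 against 226, 160 and 192 (-3.56), and the elastic fibre genes Fbln5 and Fbn1 were lower by 1.02 and 0.71. WT stood at 857.3 at Mmp3 and 177 at Fbn2, far above PTC1. Interferon response genes were lower in 12 of 22 cases (54.5%) and higher in 4 (18.2%), with a median of -0.20. Either centring gave 10 lower and 5 higher, with a median of -0.03 (chromosome) and -0.10 (local). Without PTC1 replicate 2 the counts were 8 and 5. The antiviral GTPase gene Mx2 had 165, 200 and 164 against 561, 486 and 523 (-1.57), and the ubiquitin-like modifier gene Isg15 had 86, 57 and 66 against 250, 238 and 238 (-1.80). The RNA sensor gene Ifih1 was at -2.16 in a neighbourhood at -1.87, and its call ended after local centring (-0.28, adjusted p = 0.269), where Mx2 kept -0.77. Dhx58, another RNA sensor gene, was higher by 0.52.

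Cell cycle genes had 15 of 30 higher (50.0%) and 8 lower (26.7%), near the 41.7% and 26.7% of all genes read, with a median of 0.12 beside 0.10. The counts were 11 and 10 under loess normalization and 9 and 7 after chromosome centring. The cyclin-dependent kinase inhibitor gene Cdkn2b (chromosome 4, 89310209 to 89311311) had 406, 468 and 434 in PTC1 and 1449, 1484 and 1391 in LD (-1.72, limma adjusted p = 2.68e-14). Ccnd2 was lower by 0.47, and the replication genes Mcm2 and Mcm3 were higher by 0.77 and 0.54, with Mcm2 at -0.08 after local centring. Of 21 p53 targets 8 were higher (38.1%) and 4 lower (19.05%), with a median of 0.11, and 6 and 6 under loess normalization. Among them were the apoptosis gene Pmaip1 at 494, 484 and 543 against 174, 190 and 185 (1.46) and Phlda3 at -0.44. Gadd45a (0.78) and Rrm2b (0.75) were at -0.03 and 0.003 after local centring. Of 13 housekeeping genes 6 were higher (46.2%) and 3 lower (23.1%), with a median of 0.11, and 4 and 4 under loess normalization. Eef1a1, which encodes a translation elongation factor, was lower by 1.12 and Tbp, the TATA-binding protein gene, higher by 0.51, while Pgk1 (0.92) and Ywhaz (0.62) were at 0.02 and -0.11 after local centring.

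Cell-type markers foreign to fibroblasts went both ways in most lists, which are small and are read beside the 41.7% and 26.7% of all genes. Smooth muscle markers had 3 of 9 higher and 3 lower, and their summed normalized read counts were 5107 to 5257 in PTC1 and 5108 to 5553 in LD. Beside Actg2, Lmod1, Myh11 and Tagln were at -1.15, -1.47 and -0.55. Skeletal and cardiac muscle markers had 1 of 5 higher (Myf6, 3.34) and 1 lower (Tnni3, -0.63), with sums of 438 to 527 and 468 to 532, and Myog, Myf5, Tnnt2, Myh6 and Pax7 had no region. Adipocyte markers had 2 of 6 higher and 3 lower, and their sums of 546 to 633 and 1384 to 1407 did not overlap. Most of that came from Cebpa, with 194, 150 and 155 against 1011, 1034 and 1036 (-2.63). Cartilage and bone markers had 5 of 6 higher and 0 lower (2 higher after local centring), with sums of 4173 to 4456 and 3333 to 3739. Epithelial markers had 2 of 5 higher and 0 lower (sums 820 to 918 and 641 to 670), with Krt14 at 1.23 and no region at Epcam or Cdh1. Endothelial markers had 2 of 6 higher and 1 lower (sums 1213 to 1270 and 931 to 1103), with Erg at 0.76 and Tek at -1.10. Vwf, uncalled at -0.43, was called without PTC1 replicate 2 (-0.60, limma adjusted p = 0.0213) and also without LD replicate 2 (-0.57, adjusted p = 0.0277), so the lower count was then 2. Blood markers had 1 of 4 higher (Cd68, 0.36) and 1 lower (Ptprc, -0.59), with sums of 1038 to 1124 and 1073 to 1153. Neural markers had 3 of 7 higher and 2 lower, with sums of 3940 to 4117 and 2983 to 3244. The largest part of that gap came from Sox2 (4.95), whose counts are given above. Syt1 was at 4.69, Nes at -0.90 and Tubb3 at -0.55. The part of these markers in the other differences was not tested.

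**Figure D4:**
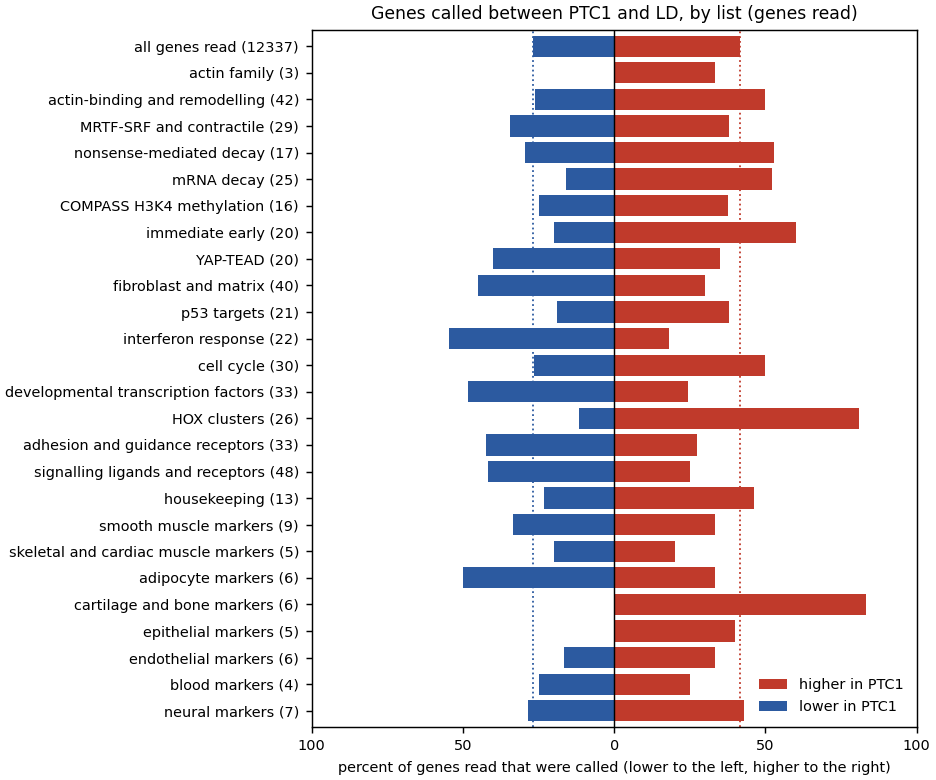
Percent of the genes read in each list that were called higher (right) and lower (left) in PTC1 than in LD, with the number read in brackets and dotted lines at the shares over all 12337 genes read (41.7% and 26.7%). HOX genes stand furthest to the right of the larger lists (21 of 26), and interferon response genes furthest to the left (12 of 22).

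Differences were also shared by long stretches of chromosome. The median log2 difference was 0.62 on chromosome 15, 0.58 on chromosome 6 and 0.36 on chromosome X, and -0.49, -0.44 and -0.42 on chromosomes 16, 9 and 12. On chromosome 15, 65.6% of regions were higher in PTC1 and 11.9% lower, and on chromosome 9 the shares were 14.2% and 58.8%. Counted as 10 or more adjacent tested regions all called in 1 direction, 275 runs were higher in PTC1 and 250 lower, and they held 15.8% of the higher and 13.3% of the lower regions. With 20 or more adjacent regions there were 59 and 32. The longest higher runs had 58 regions on chromosome 11 (55746961 to 57465478, around the neuromedin receptor gene Nmur2), 55 on chromosome 1 (144076048 to 147215207, with Rgs21) and 54 on chromosome 6 (143631272 to 144853926). Their median differences were 4.15, 4.35 and 4.31, with median levels of 5.67, 3.67 and 9.83 in LD. The longest lower runs had 54 regions on chromosome 2 (15260609 to 17446658, with Malrd1 and Plxdc2, median -3.19), 53 on chromosome X (159254675 to 160424027, median -1.42) and 49 each on chromosomes 12 (40239023 to 41629948, median -2.11) and X (168639516 to 169963961, median -2.30). Hoxc12, Hoxc11, Hoxc10, Hoxc5, Hoxc9, Hoxc8 and Hoxc6 lay in a run of 43 higher regions (chromosome 15, 102693577 to 103009820, median 2.33), named here after its values were seen. Numbers of DNA copies were not measured, and their part in these stretches was not tested.

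**Figure D5:**
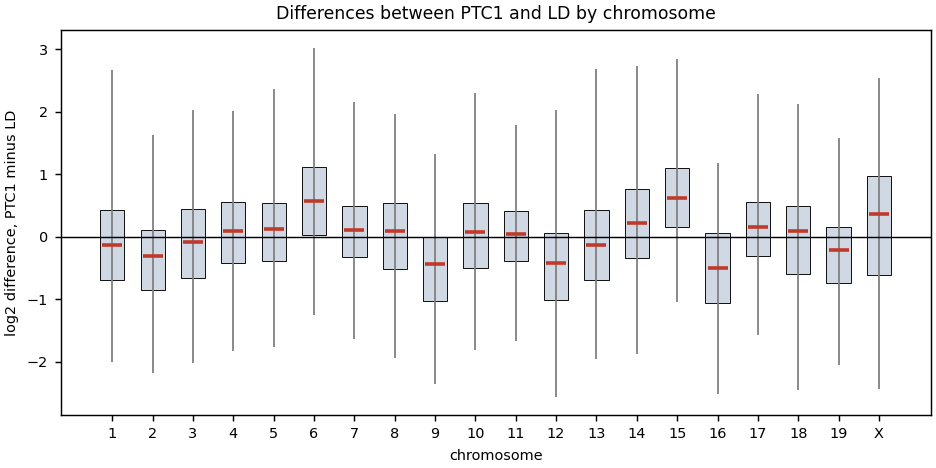
Log2 difference between PTC1 and LD by chromosome over all tested regions, as the median (red), the middle 50% of regions (box) and the central 90% (line). Chromosomes 6, 15 and X lie mostly above 0 and chromosomes 9, 12 and 16 mostly below.

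Many of the genes described lie on these chromosomes, and subtracting the chromosome's median lowered their differences. On chromosome 6 this left 0.48 at Wasl, 0.40 at Tmsb10, 0.30 at Zyx, 0.26 at Cald1, 0.51 at Lsm5, 0.20 at Gadd45a, 0.19 at Mcm2 and 0.16 at Dguok, each still called. On chromosome 15 it left 0.19 at Twf1, 0.13 at Rrm2b, 0.81 at Sp7 and 0.72 at Col2a1, and ended the calls of Myh9 (-0.01), Klf10 (0.004), Ywhaz (0.002), Kmt2d (-0.14) and Krt5 (0.27). On chromosome X it left 0.60 at Msn, 0.64 at Upf3b, 0.39 at Hcfc1, 0.15 at Kdm6a and 0.56 at Pgk1. Genes on chromosomes with a lower median moved up, to -0.68 at Eef1a1, -0.60 at Fbln5, -0.41 at Fbn1, -0.97 at Myh11 and 1.25 at Erg, and the calls of Ddx6 (-0.02), Kmt2a (-0.14), Tagln (-0.11) and Gspt1 (0.05) ended. Dcp1a was at 0.27, Ccnd2 at -1.04 and Vwf, then called, at -1.01. Local centring ended the calls of Tagln (-0.03), Jund (0.11), Sox9 (0.02), Comp (0.06), Fabp4 (0.29), Kdr (0.35), Krt5 (0.37) and Ptprc (-0.10). It left 0.24 at Lsm5, 0.17 at Dcp1a, 0.16 at Etf1, 0.22 at Mcm3, 0.26 at Tbp, -0.20 at Phlda3, -0.69 at Eef1a1 and -0.83 at Myh11. It moved others away from 0, to 0.84 at Kdm6a, -0.90 at Ccnd2, 1.16 at Erg and -1.67 at Tek.

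At the regions that differed by 1 or more, unedited cells lay nearer LD. The WT mean was nearer LD than PTC1 at 67.7% of the 12037 higher regions and 68.2% of the 12368 lower ones. PTC2 was nearer LD at 66.4% of the higher and 52.0% of the lower. Each region was chosen for its difference between PTC1 and LD and these shares have no test.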

How the data were processed

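ATAC-seq libraries of the PTC1 and LD lines (3 each) were compared, and WT and PTC2 libraries (3 each) gave levels only. The deposited table lists 81995 regions with a score per sample: by its values a read count that the authors scaled by 1 factor per library and rounded to whole numbers. It also holds, as deposited by the authors, the distance from a region's centre to a gene's start site and the fraction of each region that lies in the gene. Tools in the submitters' processing notes are DESeq2 1.30.1, Picard 2.25.5, STAR 2.7.10a and Trimmomatic 0.39, and the build is mm10. How peaks were called, and whether cut positions were shifted for Tn5, is not given in the sources used here. Fragments without molecular identifiers are not independent molecules, and a scale factor that is off for 1 line would shift all of its differences 1 way.

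Limma 3.58.1 (R 4.3.3, empirical Bayes with a trend) was run on log2(value + 1) of the 6 libraries, over 81985 regions (mean over the 12 columns 5 or more), in place of the count test planned for raw counts. A region was called when its p-value, adjusted over all of them by Benjamini-Hochberg, was under 0.05. Differences are on the log2(value + 1) scale and understate those of weak regions. Each gene was read at the listed region nearest its start site (12337 genes). Tables and figures used Python 3.11.15 with pandas 2.3.3, and the permutation test scipy 1.17.1.

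The comparison, the 25 lists (572 genes) and the rules were chosen with earlier results of these data known, among them that PTC1 and LD were the least alike pair of groups. Named regions were all actin regions, the 12 largest rises and falls among called regions (libraries not overlapping, a higher line with a mean of 20 or more, a proper gene symbol, 1 per gene and per 100000 bp), the 3 largest each way with no listed gene, up to 4 members per list with the lowest adjusted p, and the 3 longest runs each way. Some genes that these rules select are not reported here. All 26 HOX genes are plotted. Local centring subtracts the median of the regions within 1000000 bp, and chromosome centring that of the chromosome.

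The fit was also run on simulated libraries with known differences. With few regions changed, 50 per size, it recovered 48% at a log2 of 0.5, 76% at 1 and 100% at 2. With the differences fitted in the real data, 93% of the changed regions were called and 2.19% of calls were false. The differences put in were those of the called regions, with none at the others, and noise was drawn separately for each region. These shares therefore describe the simulation and are not error rates of the real calls.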

Additional observations from a re-analysis of the deposited data

How the results depend on the processing

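All 6 counts of regions, named regions and list genes stayed within 1.5 times their values under every alternative. Leaving out 1 library gave 26000 to 26741 regions higher in PTC1 and 25523 to 26283 lower, and 11916 to 12262 and 12125 to 12554 by a log2 of 1 or more. The other settings (pseudocount 10, no low filter, a mean of 20 or more, scaling to the same median, loess normalization, both centrings, all 12 libraries, the replicate block) gave 24497 to 28444 and 23932 to 27938, and 9915 to 12563 and 10211 to 12385. Of the 127 called named regions 125 to 127 kept their call without 1 library and 94 to 127 in the other settings, the fewest with local centring. Higher calls made up 49.5% to 50.9% of all calls. The deviations of same-numbered libraries correlated by -0.004 to 0.008, so the numbers do not pair the libraries, and the replicate block changed the call of 0 of 140 named regions. Differences turned with chromosome centring at Actb (-0.015), a region near Actb (-0.030), the 3′ region of Actg2 (-0.091), Acta2 (0.16) and regions near it (0.21 and 0.13), Myh9 (-0.0076), Gspt1 (0.047), Kmt2d (-0.14) and Krt8 (-0.44). With local centring they turned at Dguok (-0.067), the 3′ region of Actg2 (-0.32), Acta2 (0.077) and regions near it (0.13 and 0.051), Zyx (-0.15), Myh9 (-0.047), Gspt1 (0.15), Ddx6 (0.0017), Hcfc1 (-0.15), Kmt2d (-0.087), Klf10 (-0.12), Jun (-0.0079), Wwc2 (0.20), Gadd45a (-0.025), Mcm2 (-0.081), Ywhaz (-0.11), Krt8 (-0.44) and Tal1 (-0.079). With loess normalization they turned at Actb (-0.031) and at a region near Acta2 (0.12), which also turned without PTC1 replicate 2 (0.03), LD replicate 1 (0.11) or LD replicate 3 (0.02). Apart from the centrings' own construction, the cause was not tested. The 3 libraries per line limit small differences, such as that at Actb. Motif shares in windows of distal regions and 150-base windows were not run, and counting intervals are not given because reads before scaling are estimates.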

Other observations

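The largest differences of all lay in regions with no listed gene. A region on chromosome 6 (144269690 to 144270870) had normalized read counts of 1387, 1423 and 1303 in PTC1 and 1, 4 and 11 in LD (log2 difference 8.12, limma adjusted p = 5.63e-14), with a mean of 221.3 in WT. A region on chromosome 15 (71862960 to 71863961) had 1215, 1225 and 1183 against 0, 6 and 11 (8.11), with 12 in WT and 13.3 in PTC2. A region on chromosome 13 (11291653 to 11292365) had 452, 537 and 371 against 1, 5 and 0 (7.62), with 38.7 in WT. All 3 were nearly empty in every LD library. After the local median was subtracted the first was at 4.89 and the second at 3.55.

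In the other direction, a region on chromosome 4 (69507967 to 69508935) had 9, 1 and 5 in PTC1 and 466, 508 and 468 in LD (-6.61, limma adjusted p = 1.55e-12). Another on chromosome 4 (70914543 to 70915026) had 1, 8 and 1 against 308, 286 and 297 (-6.50), with 252.3 in WT and 2.0 in PTC2. A region on chromosome 18 (51714265 to 51715025) had 2, 2 and 2 against 178, 205 and 238 (-6.11), with 127 in WT and 135 in PTC2. PTC2 thus lay with PTC1 at the middle one of these regions and nearer LD at the others (511.3 at the first).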
